A study of Mus musculus with 16 samples.

Results

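Ion channel genes were taken from the authors' normalised table as every probe whose gene symbol began with Kcn, Cacn, Trpc, Trpm or Trpv and a digit, Scn and a digit, Clcn, or Clic and a digit. Kcnj8, a pericyte marker, was left out. This gave 94 probes for 66 genes, of 24040 probes for 16537 genes in the table. The symbols cover potassium, calcium, sodium, TRP and chloride channel subunits, and 1 matching symbol, Trpc4ap, names a channel-associated protein. The rule used names alone and no measured value.

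The cells came from tumours that 67NR cells, a mouse mammary carcinoma line, formed in mammary fat pads. Hosts were female mice of the BALB/c Ub-GFP strain, 6 to 8 weeks old. Tumours were taken 2 to 4 weeks later at an average diameter of 10 mm, and pericytes and endothelial cells were sorted from them by flow cytometry and lysed without culture. These mice either were wild type or carried a knockout of endosialin (Cd248), a membrane glycoprotein of pericytes and fibroblasts. The 4 groups were pericytes of wild-type and of knockout hosts and endothelial cells of both, with 4 bead arrays each. The loss of endosialin is a property of the host, and the tumour cells are those of the 67NR line in all groups. The labels do not say whether replicates are separate animals, so the p-values given here reflect the spread between arrays alone, which may be technical.

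Ion channels set the membrane potential and let calcium into the cell. In mural cells, which include pericytes and vascular smooth muscle, opening of potassium channels hyperpolarises the membrane and closes L-type calcium channels, while TRPC channels depolarise it and carry calcium. In endothelial cells, inward rectifier potassium channels hold the membrane potential negative and so favour calcium entry. Auxiliary subunits carry no current of their own and change the gating or the trafficking of the pore-forming subunits.

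Values are log2 intensities. Array medians lay between 7.18 and 7.21 and lower quartiles between 6.92 and 6.96. A value near 7 is therefore close to the lower end of the scale, where folds are compressed. The files hold no detection p-values, so whether such a probe saw its transcript cannot be said. Probes differ in brightness, so levels were compared between groups for 1 probe at a time and not between genes. Cd248 read 10.98 ± 0.21 in wild-type pericytes and 7.09 ± 0.10 in knockout pericytes (SD, n = 4 each) on its brighter probe, as the genotype labels state. Over the 10 endothelial markers, mean intensity lay between 9.83 and 10.01 on the endothelial arrays and between 6.95 and 7.28 on the pericyte arrays. The mean over 8 pericyte markers, Cd248 among them, lay between 8.49 and 9.83 on the pericyte arrays and between 7.19 and 7.55 on the endothelial arrays. The pericyte arrays also held markers of other cells. The mean over 7 fibroblast markers lay between 10.07 and 10.77 on the pericyte arrays and between 6.81 and 6.99 on the endothelial arrays. The mean over 14 keratinocyte markers was 7.39, 9.59, 9.69 and 9.11 on knockout pericyte replicates 1 to 4, against 6.81 to 7.63 on the wild-type pericyte arrays. The mean over 7 mast cell markers was 6.95, 7.68, 9.42 and 10.07 on wild-type pericyte replicates 1 to 4 and 7.10, 8.94, 9.74 and 8.85 on knockout replicates 1 to 4. On the same knockout arrays 5 luminal epithelial markers averaged 7.11, 8.04, 8.14 and 8.83, and 2 granulocyte markers 6.74, 8.34, 8.11 and 8.72. In wild-type pericytes these means reached at most 7.72 and 7.05. The lymphocyte markers Cd3e and Cd2 averaged 7.42 to 8.34 on the pericyte arrays, with Cd3e the higher on each. They averaged 6.91 to 6.99 on the endothelial arrays. The part of these cells in the differences between pericytes and endothelial cells was not tested, except by leaving out arrays and by marker covariates. The covariates were the keratinocyte or the mast cell marker mean. On the endothelial arrays the mast cell mean lay between 7.38 and 7.55, above wild-type pericyte replicate 1. There Kit and Hdc read 8.18 to 9.53 and the other mast cell markers at most 7.40. That mean therefore does not rest on the same genes in both cell types. Some knockout calls were lost in the fits with arrays left out or with a covariate. In wild type the Kcnj15 call was lost without the mast-cell-rich pericyte arrays but held with the mast cell covariate, with which Trpc4ap passed. No setting addressed the fibroblast markers, and no covariate was fitted for the luminal epithelial, granulocyte or lymphocyte markers. In sorted bulk samples, fewer cells of a type and less RNA per cell cannot be told apart.

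Most channel genes sat at the lower end of the scale. A probe entered the test when it lay above the median of its own array on at least 4 of the 16 arrays. Of the 94 channel probes 32 did, for 23 of the 66 genes, and the other 43 genes were not tested. The highest group mean of those 43 genes ranged from 6.86 to 7.34. A group mean of 8 or more was reached by 8 genes, which were Kcne4, Cacna2d1 and Scn7a in pericytes, Kcnj2 and Kcne3 in endothelial cells, and Clic1, Clic4 and Trpm7 in both cell types.

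**Figure D1:**
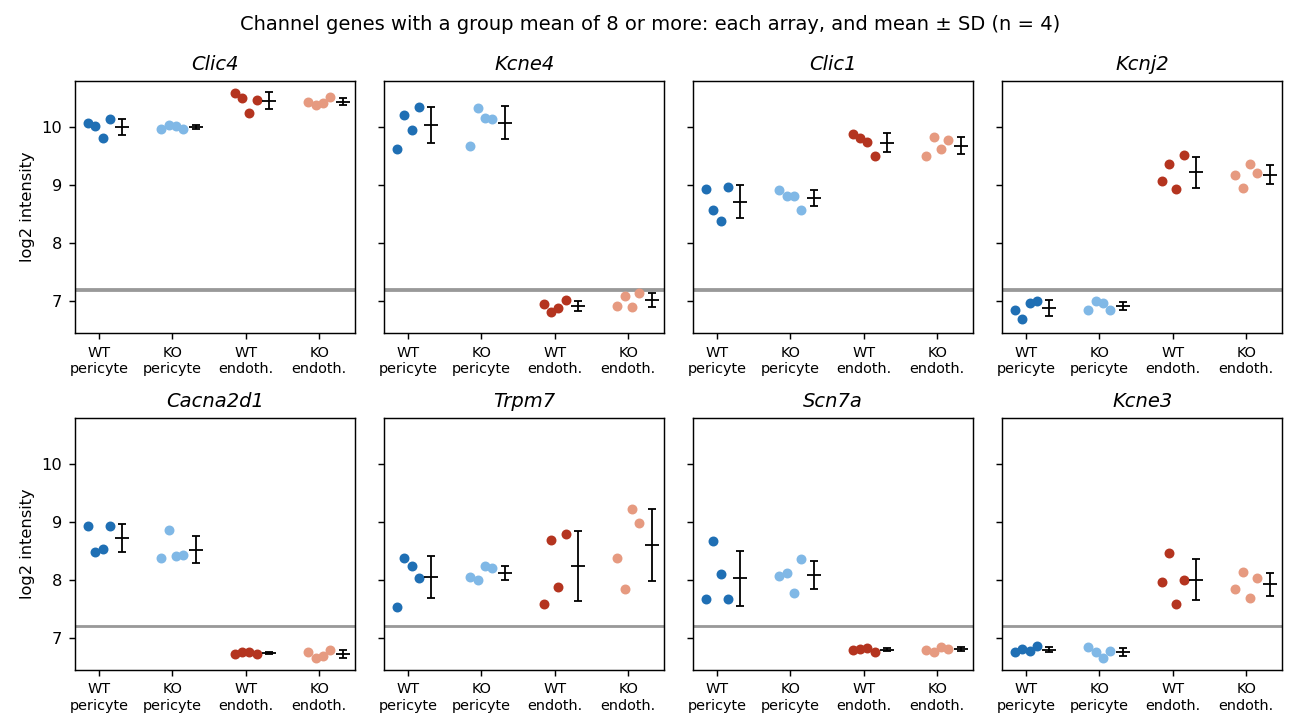
Log2 intensity on each array for the 8 channel genes with a group mean of 8 or more, by group, with the mean ± SD of the 4 arrays. The grey band marks the range of array medians, 7.18 to 7.21. Kcne4, Cacna2d1 and Scn7a lie above it on all pericyte arrays and below it on all endothelial arrays, Kcnj2 and Kcne3 the other way round, and Clic1, Clic4 and Trpm7 above it in all groups. Heights are not comparable between genes, since probes differ in brightness.

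The comparison of pericytes with endothelial cells asks which channels each vascular cell type of the tumour carries. In wild-type hosts, 8 of the 23 tested genes were higher in pericytes and 9 were lower (limma, Benjamini-Hochberg adjustment over 10426 genes, threshold 0.05). In the same comparison 36.2% of all genes tested were called, 17.1% higher and 19.1% lower. Among the higher genes were the potassium channel subunits Kcne4 and Kcnk6, the calcium channel subunits Cacna2d1, Cacnb3, Cacna1c and Cacna1d, and the sodium channel gene Scn7a. The lower genes were the potassium channel subunits Kcnj2, Kcnj14, Kcnj15, Kcna5 and Kcne3, the calcium channel subunit Cacng1, and the chloride channel family members Clcn3, Clic1 and Clic4. In knockout hosts 8 were again higher and 9 lower, where 35.9% of all genes were called, 17.4% higher and 18.5% lower. The calls were shared by 16 genes, 7 higher and 9 lower, with 0 in opposite directions. The remaining higher gene was Kcnk6 in wild type and Trpc4ap in knockout.

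The filter bears on these counts. Of the 23 tested genes, 12 lay above the array median on arrays of 1 cell type only, 7 in pericytes and 5 in endothelial cells. They entered the test through the group where they were high and had to differ. The 7 included Kcne4, Scn7a, Cacna2d1, Cacnb3, Cacna1c and Cacna1d, and the 5 were Kcnj2, Kcne3, Kcna5, Kcnj14 and Cacng1. The filter thus fixed the directions of these genes, and their p-values are no separate support for them. Without the filter, 23 of the 66 channel genes (34.8%) were called in wild type, beside 25.8% of all 16537 genes. They were 12 higher and 11 lower, beside 12.7% and 13.2% of all genes. In knockout 21 (31.8%) were called, beside 26.7%, with 9 higher and 12 lower, beside 13.4% in either direction. The arrays of both cell types did not overlap for 16 of the 23 tested genes in wild type, beside 33.6% of all genes tested, and for 16 in knockout, beside 36.6%. The filter bears on this overlap count as well, and the share without it was not computed. In wild type the median difference over the 23 genes was 0.09 and in knockout hosts 0.04, against -0.03 and -0.04 over all genes tested.

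**Figure D2:**
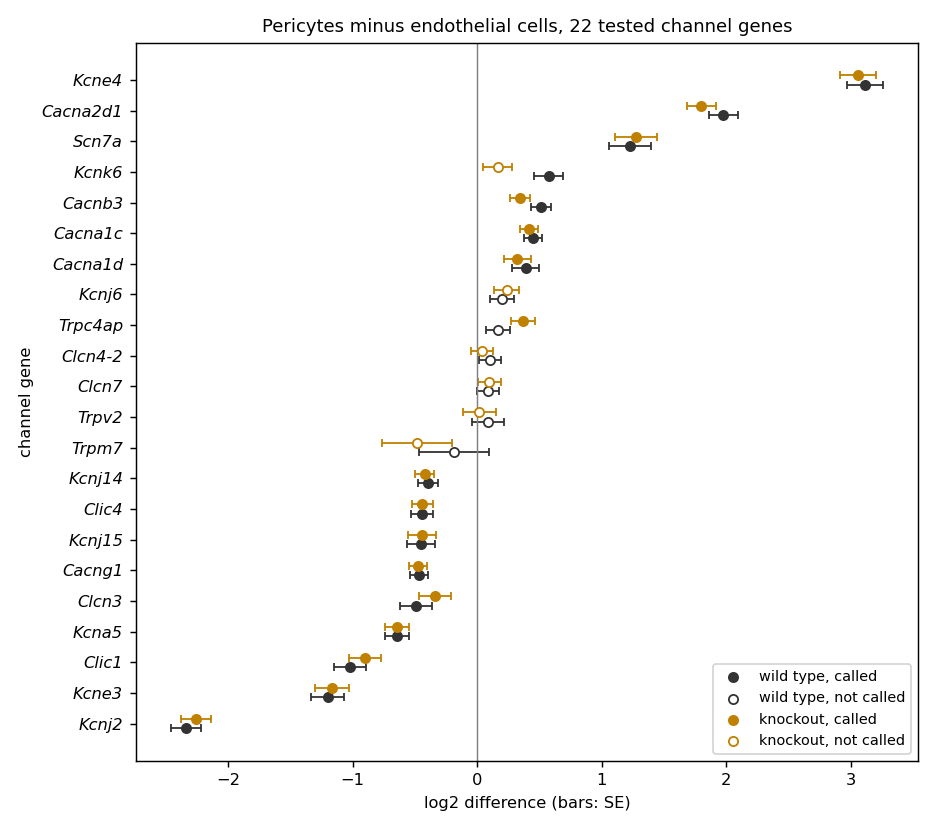
Log2 difference, pericytes minus endothelial cells, of 22 tested channel genes in wild-type (black) and knockout (ochre) hosts, with the standard error of the fit. Filled points passed the limma test at an adjusted p of 0.05. Kcne4 (3.11 and 3.06) and Kcnj2 (-2.34 and -2.26) stand at either end in both genotypes.

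Upstream sequences are shown for the 2 genes with the largest difference in each direction among called genes with a single listed start, as examples of genes that were high in either cell type. They are the 250 bases before the start, from RefSeq (GRCm38.p6), in which all 66 genes were matched, 63 by accession and 3 by symbol. Kcne4 lies at chr1:78816661-78816910, Cacna2d1 at chr5:15934441-15934690, Kcnj2 at chr11:111065914-111066163 and Clic1 at chr17:35049993-35050242, all on the plus strand and read 5′ to 3′. Capitals mark matches on either strand to AGGAAG (the core bound by ETS factors, which act in endothelial cells) or GGGCGG (the GC box). The other motifs searched were TATAAA and the CArG box bound by serum response factor, a regulator of contractile genes.

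Kcne4: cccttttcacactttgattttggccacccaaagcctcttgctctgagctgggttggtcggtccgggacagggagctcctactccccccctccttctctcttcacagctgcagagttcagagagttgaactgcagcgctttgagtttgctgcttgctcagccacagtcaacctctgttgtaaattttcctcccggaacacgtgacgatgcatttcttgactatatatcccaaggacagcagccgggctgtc
Cacna2d1: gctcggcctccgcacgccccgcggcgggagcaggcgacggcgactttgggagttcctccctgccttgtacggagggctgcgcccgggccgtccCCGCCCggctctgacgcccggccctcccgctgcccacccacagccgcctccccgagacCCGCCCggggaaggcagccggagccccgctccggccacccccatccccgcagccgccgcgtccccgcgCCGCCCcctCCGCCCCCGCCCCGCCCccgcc
Kcnj2: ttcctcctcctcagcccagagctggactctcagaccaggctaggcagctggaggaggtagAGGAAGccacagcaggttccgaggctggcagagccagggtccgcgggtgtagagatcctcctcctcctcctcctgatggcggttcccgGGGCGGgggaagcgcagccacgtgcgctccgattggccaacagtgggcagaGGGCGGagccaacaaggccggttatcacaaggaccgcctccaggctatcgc
Clic1: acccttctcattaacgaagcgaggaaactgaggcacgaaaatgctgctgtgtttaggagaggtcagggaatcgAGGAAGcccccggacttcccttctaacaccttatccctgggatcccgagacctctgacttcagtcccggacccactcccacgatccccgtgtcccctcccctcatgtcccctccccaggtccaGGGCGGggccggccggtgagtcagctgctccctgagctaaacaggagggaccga

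The Kcne4 window held none of the 4 motifs and had 53.2% G and C. The Cacna2d1 window held 6 GC boxes, most of them close to the start, and had 82.4% G and C. Kcnj2, with 65.6% G and C, held 1 ETS core and 2 GC boxes. Clic1, with 60.8%, held 1 of each. No bases were shared between matches of different motifs. Among all 32851 windows of this length, 29.5% held the ETS core, 32.7% the GC box, 12.4% the TATAAA element and 1.47% the CArG box. Of the genes higher in wild-type pericytes, 6 of 8 had a listed window, and 2 held the ETS core, 5 the GC box, 1 the TATAAA element and 0 the CArG box. Of the genes lower in pericytes, 7 of 9 had a listed window, and 5 held the ETS core, 5 the GC box, 0 the TATAAA element and 0 the CArG box. A gene was counted when any of its listed windows held the motif, while the percentages are shares of single windows. Genes with several starts had more chances of a match, so these counts cannot be set against the percentages. A match describes the letters only and is not a binding site.

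Auxiliary potassium channel subunits gave the largest difference of all tested channel genes, in opposite directions for the 2 members that passed the filter. Kcne4 encodes a single-pass subunit that dampens currents of voltage-gated potassium channels in expression systems. It read 9.63, 10.21, 9.95 and 10.35 on wild-type pericyte replicates 1 to 4 and 9.67, 10.32, 10.16 and 10.14 on knockout replicates 1 to 4. The endothelial arrays read 6.96, 6.82, 6.89 and 7.02 in wild type and 6.92, 7.09, 6.91 and 7.14 in knockout. All 8 pericyte arrays lay far above all 8 endothelial arrays, and all endothelial arrays lay below their medians. Kcne4 was 8.65-fold higher in wild-type pericytes (log2 difference 3.11, SE 0.15, limma, adjusted p = 4.98e-12) and 8.34-fold higher in knockout pericytes (3.06, SE 0.15, limma, adjusted p = 6.41e-12). Kcne3, a relative that holds KCNQ-type potassium channels open, ran the other way. It read 6.76, 6.82, 6.77 and 6.86 on wild-type pericyte arrays against 7.96, 8.46, 7.59 and 8.00 on wild-type endothelial arrays. In knockout hosts it read 6.84, 6.77, 6.66 and 6.77 in pericytes against 7.84, 8.13, 7.68 and 8.03 in endothelial cells. The groups did not overlap, and the pericyte values sat at the floor of the scale. Kcne3 was 2.30-fold lower in wild-type pericytes (-1.20, SE 0.14, limma, adjusted p = 9.77e-07) and 2.24-fold lower in knockout pericytes (-1.16, SE 0.14, limma, adjusted p = 1.51e-06). The other 6 auxiliary potassium channel genes were not tested.

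Of the pore-forming potassium channel genes, 4 of 6 inward rectifiers were tested, and 3 were lower in pericytes. Kcnj2, which encodes the strong inward rectifier that sets the resting potential of many endothelial cells, read 9.07, 9.36, 8.93 and 9.52 on wild-type endothelial arrays. On knockout endothelial arrays it read 9.18, 8.96, 9.36 and 9.21. On the pericyte arrays it read 6.86, 6.70, 6.96 and 7.01 in wild type and 6.85, 7.0004, 6.97 and 6.86 in knockout. The endothelial arrays were all high and the pericyte arrays all below their medians. The gene was 5.05-fold lower in wild-type pericytes (-2.34, SE 0.12, limma, adjusted p = 1.84e-11) and 4.78-fold lower in knockout pericytes (-2.26, SE 0.12, limma, adjusted p = 3.10e-11). Kcnj15 and Kcnj14, other inward rectifiers, were lower by smaller steps near the array medians. Kcnj15 had means of 6.99 ± 0.24 in wild-type pericytes, 6.98 ± 0.14 in knockout pericytes, 7.45 ± 0.12 in wild-type endothelial cells and 7.42 ± 0.14 in knockout endothelial cells (SD, n = 4 each). Its 3 kept probes all differed the same way in wild type, by -0.45 to -0.49, and the unkept probe by -0.25. Wild-type pericyte replicate 2 read 7.34 and overlapped the endothelial arrays. Without wild-type pericyte replicates 3 and 4, which had the highest mast cell marker means of that group, Kcnj15 no longer passed in wild type (-0.34, limma, adjusted p = 0.0749). That fit kept the high replicate 2. With the mast cell marker mean as a covariate Kcnj15 still passed in wild type. Without knockout pericyte replicates 2 to 4, the arrays rich in keratinocyte markers, it no longer passed in knockout (-0.44, limma, adjusted p = 0.120). Kcnj14 had means of 6.82 ± 0.04 and 6.77 ± 0.04 in wild-type and knockout pericytes and 7.21 ± 0.12 and 7.19 ± 0.09 in wild-type and knockout endothelial cells (SD, n = 4 each). Kcnj6, a G-protein-gated inward rectifier, had positive differences of 0.20 and 0.24 that did not pass (limma, adjusted p = 0.132 in wild type and 0.0738 in knockout). The knockout difference passed with array weights (0.25, limma, adjusted p = 0.0328), without wild-type pericyte replicate 3 (0.24, limma, adjusted p = 0.0476) and without knockout pericyte replicate 1 (0.31, limma, adjusted p = 0.0246), and it turned to -0.0774 with the keratinocyte covariate.

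The only tested voltage-gated potassium alpha subunit of 7 was Kcna5, a delayed rectifier. It read 7.55, 7.39, 7.57 and 7.39 on wild-type endothelial arrays and 6.85, 6.85, 6.76 and 6.85 on wild-type pericyte arrays. In knockout hosts it read 7.64, 7.55, 7.15 and 7.27 in endothelial cells and 6.78, 6.79, 6.71 and 6.75 in pericytes. All endothelial arrays lay above all pericyte arrays, and 1 knockout endothelial array fell below its median. Kcna5 was 1.56-fold lower in pericytes of both genotypes (-0.64 each, SE 0.10, limma, adjusted p = 2.75e-05 in wild type and 2.84e-05 in knockout). Among the 7 K2P (tandem pore domain) genes, which encode leak channels, Kcnk6 was tested. It read 7.47, 7.97, 7.49 and 7.35 on wild-type pericyte arrays and 7.42, 7.14, 7.26 and 7.37 on knockout pericyte arrays. The endothelial arrays read 7.01, 6.93, 6.97 and 7.06 in wild type and 7.37, 7.10, 7.05 and 6.995 in knockout. The wild-type groups did not overlap, with replicate 2 of the pericytes the highest, while the knockout groups did. Kcnk6 was 1.49-fold higher in wild-type pericytes (0.57, SE 0.12, limma, adjusted p = 7.57e-04) and did not pass in knockout (0.17, SE 0.12, limma, adjusted p = 0.308). This call rests on 1 of 3 probes, as the other 2 differed by 0.08 and 0.03 and did not pass (limma on all probes, adjusted p = 0.298 and 0.728).

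The 4 calcium channel genes called higher in pericytes entered the test through pericyte arrays alone, and the 1 called lower, Cacng1, through endothelial arrays alone, so the filter fixed their directions. Both tested alpha1 (pore-forming) genes of 4, Cacna1c and Cacna1d, encode L-type channels, the main route of voltage-gated calcium entry in contractile vascular cells. Cacna1c read 7.13, 7.30, 7.22 and 7.24 on wild-type pericyte arrays and 7.28, 7.12, 7.14 and 7.19 on knockout pericyte arrays, against 6.72 to 6.82 on all endothelial arrays. No pericyte array overlapped an endothelial one, though the pericyte values stayed near the array medians. It was 1.36-fold higher in wild-type (0.45, SE 0.07, limma, adjusted p = 4.98e-05) and 1.33-fold higher in knockout pericytes (0.42, SE 0.07, limma, adjusted p = 1.08e-04). Its 3 unkept probes also differed by 0.27 to 0.36 in wild type, and the brightest over all arrays, at 0.27, did not pass (limma on all probes, adjusted p = 0.101). Cacna1d read 6.99, 7.50, 7.38 and 6.97 on wild-type and 6.95, 7.21, 7.06 and 7.25 on knockout pericyte arrays, against 6.75 to 6.85 on the endothelial arrays. Replicates 2 and 3 of the wild type were the high ones. Cacna1d was 1.31-fold higher in wild-type (0.39, SE 0.11, limma, adjusted p = 0.00846) and 1.25-fold higher in knockout pericytes (0.32, SE 0.11, limma, adjusted p = 0.0265). The knockout call was lost without knockout pericyte replicate 2 or 4 (limma, adjusted p = 0.0737 and 0.0841) and without knockout endothelial replicate 1 or 4 (limma, adjusted p = 0.0529 and 0.0619). Without knockout pericyte replicates 2 to 4 its difference was 0.16 (limma, adjusted p = 0.627).

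Of 8 auxiliary calcium channel genes 3 were tested. Cacna2d1 encodes the alpha2-delta subunit that brings calcium channels to the membrane and binds gabapentin. It read 8.93, 8.48, 8.54 and 8.93 on wild-type pericyte arrays and 8.37, 8.87, 8.41 and 8.44 on knockout pericyte arrays. The endothelial arrays read 6.72, 6.76, 6.76 and 6.73 in wild type and 6.76, 6.65, 6.69 and 6.79 in knockout, all at the floor and far below every pericyte array. Cacna2d1 was 3.94-fold higher in wild-type (1.98, SE 0.12, limma, adjusted p = 1.50e-10) and 3.48-fold higher in knockout pericytes (1.80, SE 0.12, limma, adjusted p = 5.52e-10). Its other 2 probes also differed, by 1.26 and 0.33 in wild type (limma on all probes, adjusted p = 6.81e-08 and 2.19e-04). Cacnb3, a cytoplasmic beta subunit, had means of 7.33 ± 0.10 and 7.22 ± 0.15 in wild-type and knockout pericytes and 6.81 ± 0.01 and 6.88 ± 0.04 in wild-type and knockout endothelial cells (SD, n = 4 each). It was 1.43-fold and 1.27-fold higher in pericytes (0.51 and 0.34, limma, adjusted p = 6.14e-05 and 0.00279). The call rests on 1 of its 3 probes, since the others differed by 0.16 and 0.13 and did not pass. Cacng1, a gamma subunit of the skeletal muscle calcium channel, went the other way, with 7.28 ± 0.06 in wild-type endothelial cells and 6.82 ± 0.04 in wild-type pericytes (SD, n = 4 each). It was 1.38-fold lower in wild-type and 1.39-fold lower in knockout pericytes (-0.47 each, limma, adjusted p = 3.96e-05 and 3.58e-05).

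Scn7a was the 1 tested sodium channel alpha gene of 5, and none of the 3 beta subunit genes was tested. It encodes an atypical channel that senses extracellular sodium and opens little with voltage. Scn7a read 7.67, 8.67, 8.10 and 7.67 on wild-type pericyte arrays and 8.07, 8.11, 7.78 and 8.36 on knockout pericyte arrays. All endothelial arrays lay at the floor, with 6.79, 6.81, 6.82 and 6.76 in wild type and 6.80, 6.76, 6.85 and 6.81 in knockout. The groups did not overlap, but the pericyte arrays spread more widely than the endothelial ones. Scn7a was 2.35-fold higher in wild-type (1.23, SE 0.17, limma, adjusted p = 9.76e-06) and 2.42-fold higher in knockout pericytes (1.28, SE 0.17, limma, adjusted p = 6.37e-06).

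Trpm7 was the tested gene among 4 TRPM genes, and Trpv2 the tested gene among 2 TRPV genes. Trpm7, a magnesium- and zinc-permeable channel fused to a kinase, was bright in all groups and variable in endothelial cells. It read 7.54, 8.37, 8.24 and 8.04 on wild-type and 8.04, 8.00, 8.23 and 8.20 on knockout pericyte arrays. It read 7.58, 8.69, 7.88 and 8.79 on wild-type and 8.38, 7.84, 9.22 and 8.97 on knockout endothelial arrays. The groups overlapped, and the differences of -0.19 in wild type and -0.48 in knockout did not pass (SE 0.28 each, limma, adjusted p = 0.652 and 0.201). Without knockout endothelial replicate 2, the lowest array of its group, the knockout difference was -0.74 and passed (limma, adjusted p = 0.0427). Its second kept probe read 7.06 to 7.13 as group means. Trpv2, a heat- and stretch-responsive cation channel, differed by 0.09 and 0.02 and did not pass (limma, adjusted p = 0.655 and 0.939). Trpc4ap, an adaptor of a ubiquitin ligase that binds a TRPC channel, was 1.29-fold higher in knockout pericytes (0.37, SE 0.10, limma, adjusted p = 0.00497). This call rests on 1 of 3 probes, as the others differed by -0.16 and 0.05 in knockout and did not pass (limma on all probes, adjusted p = 0.0654 and 0.738). Trpc4ap did not pass in wild type (0.16, SE 0.10, limma, adjusted p = 0.203), except with the mast cell marker mean as a covariate (0.26, limma, adjusted p = 0.0403).

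Of 3 CLIC genes 2 were tested, and both were lower in pericytes. Clic1 and Clic4 belong to the CLIC proteins, which exist in soluble and membrane forms, and Clic4 takes part in endothelial tube formation. Clic1 read 9.87, 9.80, 9.73 and 9.51 on wild-type and 9.50, 9.83, 9.61 and 9.77 on knockout endothelial arrays. It read 8.93, 8.57, 8.38 and 8.97 on wild-type and 8.91, 8.81, 8.82 and 8.57 on knockout pericyte arrays. All arrays were well above their medians, and every endothelial array lay above every pericyte array. Clic1 was 2.02-fold lower in wild-type (-1.02, SE 0.13, limma, adjusted p = 3.80e-06) and 1.87-fold lower in knockout pericytes (-0.90, SE 0.13, limma, adjusted p = 1.65e-05). Clic4 was bright everywhere, at 10.07, 10.01, 9.81 and 10.13 on wild-type and 9.97, 10.03, 10.01 and 9.97 on knockout pericyte arrays. The endothelial arrays read 10.59, 10.49, 10.25 and 10.46 in wild type and 10.43, 10.38, 10.42 and 10.52 in knockout. The groups did not overlap, though the step between them was small. Clic4 was 1.36-fold lower in pericytes of both genotypes (-0.44 each, SE 0.09, limma, adjusted p = 4.89e-04 and 5.32e-04). With the keratinocyte covariate it no longer passed in knockout (-0.41, limma, adjusted p = 0.0933). Its 3 kept probes differed by -0.44 to -0.63 in wild type.

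Of the 4 ClC genes 3 were tested. Clcn3 encodes an endosomal chloride-proton exchanger. Its means were 7.18 ± 0.16 and 7.38 ± 0.15 in wild-type and knockout pericytes and 7.68 ± 0.22 and 7.72 ± 0.23 in wild-type and knockout endothelial cells (SD, n = 4 each). It was 1.41-fold lower in wild-type (-0.49, SE 0.13, limma, adjusted p = 0.00471) and 1.27-fold lower in knockout pericytes (-0.34, SE 0.13, limma, adjusted p = 0.0441), where the arrays overlapped. All 4 kept probes were lower in wild-type pericytes, by -0.26 to -0.49, and 3 of them passed. The knockout call was lost under several alternatives, such as quantile normalization (limma, adjusted p = 0.0504), the replicate number as a block (limma, adjusted p = 0.0511) and leaving out knockout endothelial replicate 1 (limma, adjusted p = 0.148). Clcn7, a lysosomal exchanger, and Clcn4-2 (Clcn4 in RefSeq), an endosomal one, differed by 0.09 and 0.10 in wild type and by 0.10 and 0.04 in knockout, and neither passed (limma, adjusted p between 0.400 and 0.791).

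Several channel genes that varied among wild-type pericyte arrays peaked on different arrays. Trpc6 encodes a cation channel opened by diacylglycerol. It was not tested and was chosen after its values were seen. The brighter of its 2 probes read 7.49 and 7.71 on wild-type pericyte replicates 1 and 4 and 7.04 and 7.11 on replicates 2 and 3, and the other read 7.29 and 7.72 against 6.84 and 6.87. Replicates 1 and 4 also had the highest pericyte marker means, 9.51 and 9.83, against 8.78 and 8.87 on replicates 2 and 3. Scn7a, Cacna1d and Kcnk6, set together after their values were seen, were each highest on wild-type replicate 2, followed by replicate 3. These arrays had the highest fibroblast marker means, 10.77 and 10.68, against 10.36 and 10.07 on replicates 1 and 4. The knockout arrays did not show this order. Their fibroblast marker mean was highest on replicate 1, at 10.54, where Kcnk6 was the highest of its group at 7.42 but Scn7a was the third of 4 at 8.07 and Cacna1d the lowest at 6.95. The 4 wild-type arrays also differed in mast cell markers, and the part of cell composition in these values was not tested.

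**Figure D3:**
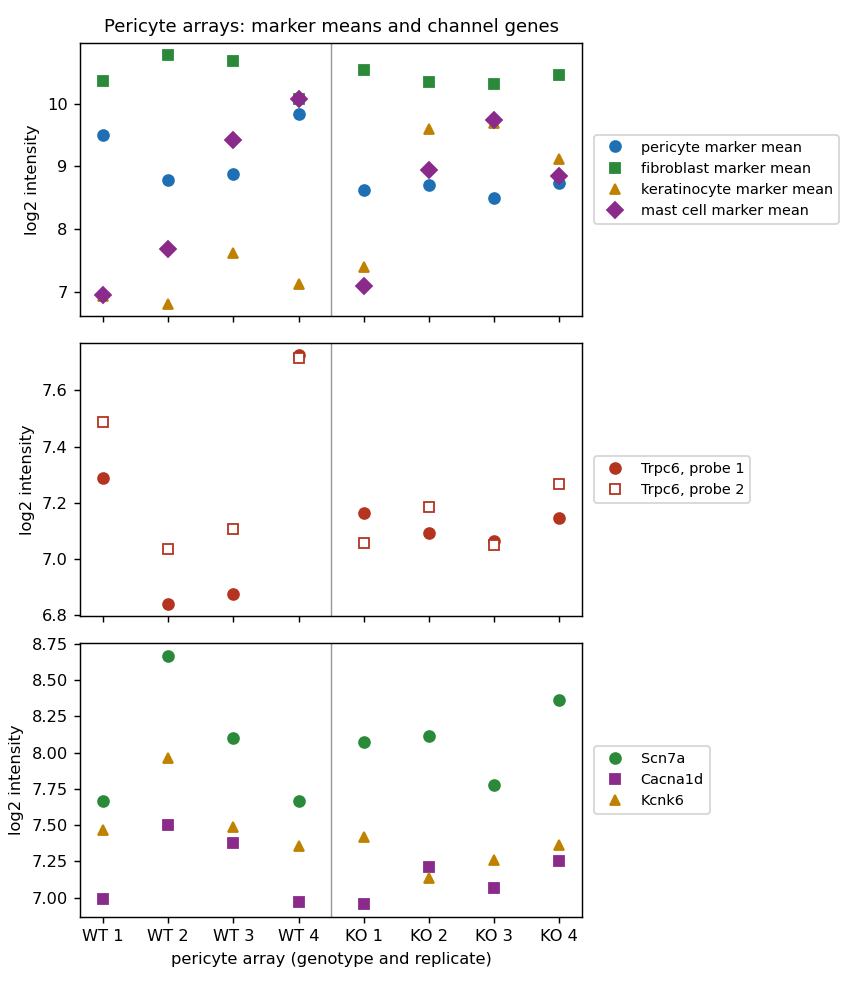
Log2 intensity on the 8 pericyte arrays, wild type (WT) and knockout (KO), of 4 marker means (top), both probes of Trpc6 (middle), and Scn7a, Cacna1d and Kcnk6 (bottom). Trpc6 peaks on wild-type replicates 1 and 4, and Scn7a, Cacna1d and Kcnk6 on wild-type replicate 2.

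The comparison of knockout with wild-type hosts asks whether loss of endosialin changed these genes. In pericytes 0 of 23 tested channel genes passed, with 0.317% of all genes called (limma), and 1 had an unadjusted p under 0.05. In endothelial cells 0 of 23 passed, with 0.00959% of all genes called, and 0 had an unadjusted p under 0.05. The difference between both effects, which shares all arrays with them, passed for 0 of 23 genes, with 0.0192% called, and 1 had an unadjusted p under 0.05. Arrays of knockout and wild-type pericytes overlapped for all 23 genes, beside 3.01% of all genes without overlap. In endothelial cells 1 gene, Kcnj6, did not overlap, beside 2% of all genes, and its nearest arrays both read 7.33 after rounding. The median difference was -0.02 in pericytes and 0.01 in endothelial cells, against -0.01 and -0.002 over all genes tested. The 95% intervals of the 23 differences reached from -0.52 to 0.66 at most in pericytes and from -0.37 to 0.96 in endothelial cells, both upper ends being those of Trpm7.

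Kcnk6 had the smallest unadjusted p in pericytes, where wild type had a mean of 7.57 ± 0.27 and knockout 7.29 ± 0.12 (SD, n = 4 each). The difference was -0.27 (95% interval -0.52 to -0.03, limma, unadjusted p = 0.0323, adjusted p = 0.632). It was 0.13 in endothelial cells, and the difference between both effects was -0.41 (95% interval -0.76 to -0.06, limma, unadjusted p = 0.0253, adjusted p = 1.00). The pericyte arrays of both genotypes overlapped, and wild-type replicate 2 stood highest. Cacna2d1 differed by -0.20 in pericytes (95% interval -0.45 to 0.05, limma, adjusted p = 0.800), with knockout replicate 2 at 8.87 inside the wild-type range and the other 3 knockout arrays below it. Kcnj6 read 7.26, 7.50, 7.70 and 7.34 on wild-type and 7.39, 7.75, 7.57 and 7.72 on knockout pericyte arrays. On endothelial arrays it read 7.12, 7.28, 7.28 and 7.33 in wild type and 7.40, 7.39, 7.37 and 7.33 in knockout. Knockout values were thus slightly higher in both cell types, by 0.16 (95% interval -0.05 to 0.37) and 0.12 (95% interval -0.09 to 0.33), and neither passed (limma, adjusted p = 0.812 and 1.00). With the keratinocyte marker mean as a covariate the Kcnj6 difference in pericytes turned to -0.11. Trpm7 had the smallest unadjusted p in endothelial cells, with a difference of 0.37 (95% interval -0.22 to 0.96, limma, unadjusted p = 0.206, adjusted p = 1.00) and overlapping arrays. For the difference between both effects, Trpc4ap at 0.21 and Cacnb3 at -0.17 followed Kcnk6, and neither passed (limma, adjusted p = 1.00 each). The genes Kcne4 and Kcnj2, which differed most between cell types, differed between genotypes by 0.04 in either case in pericytes and by 0.10 and -0.04 in endothelial cells.

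**Figure D4:**
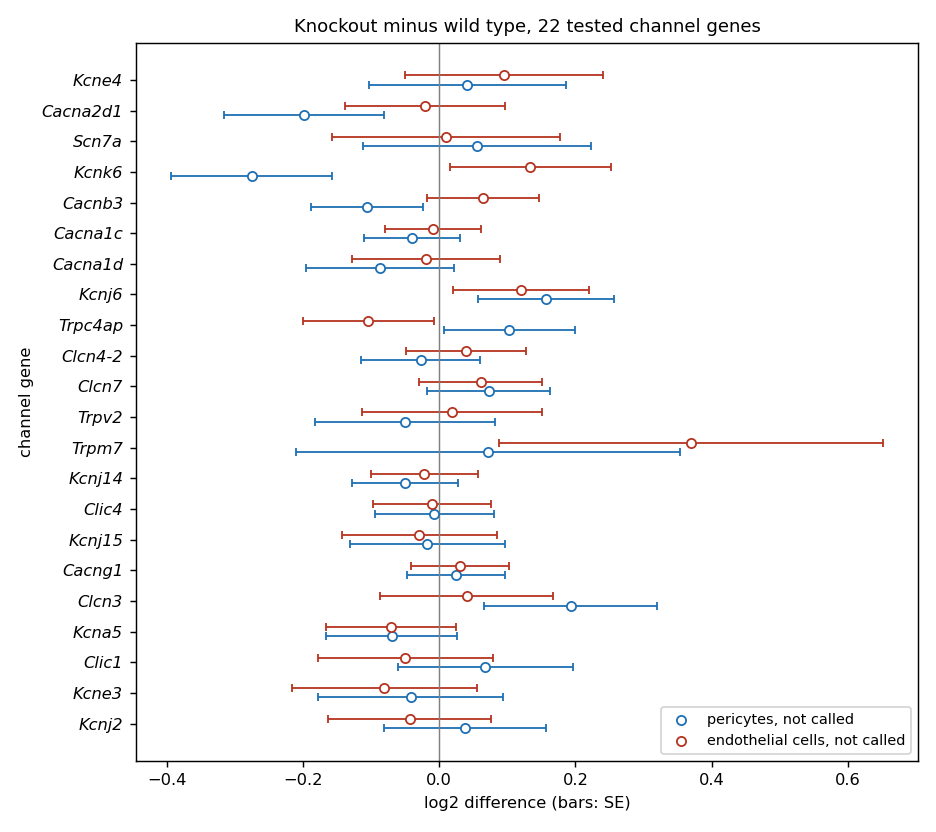
Log2 difference, knockout minus wild type, of 22 tested channel genes in pericytes (blue) and endothelial cells (red), with the standard error of the fit. All points are open, since 0 genes passed the limma test at an adjusted p of 0.05 in either cell type. The axis is much narrower than that used for the cell types.

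Genes of ion transport outside the named families were counted beside the channels, from a list of 38 on the array, of which 32 were tested. In wild type 10 were higher in pericytes and 9 lower, in knockout 9 and 9. This was 59.4% of those tested in wild type, beside 36.2% of all genes, and 56.2% in knockout, beside 35.9%. Without the filter on low signal 52.6% and 50% of the 38 were called, beside 25.8% and 26.7% of all genes. In the 3 genotype comparisons 0 of 32 passed (limma), beside 0.317%, 0.00959% and 0.0192% of all genes. Among those higher in wild-type pericytes were Atp1b2, a sodium pump beta subunit, by 2.46, the chloride channel Ano1, which calcium activates, by 1.09, the calcium store pump Atp2a2 by 0.71 and the sodium-calcium exchanger Slc8a1 by 0.56 (limma, adjusted p between 1.09e-08 and 6.58e-04). Of the store-operated entry genes, the calcium sensor Stim1 was higher by 0.58, and its relative Stim2 and the channel Orai1 were at -0.64 and -0.61 (limma, adjusted p = 0.00736, 1.17e-05 and 2.64e-06). Orai3, a related channel, was tested too and its difference of 0.0081 missed the threshold (limma, adjusted p = 0.956). The plasma membrane calcium pump Atp2b4 and the volume-regulated anion channel subunit Lrrc8c were lower in pericytes, each at -0.93, and the inositol trisphosphate receptor Itpr1 was at -0.53 (limma, adjusted p = 1.31e-05, 3.85e-06 and 0.00279).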

How the data were processed

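RNA of sorted cells was amplified (Ovation Pico WTA System V2) and hybridised to Illumina MouseWG-6 v2.0 arrays, per the labels' protocols. The authors deposited normalized log2 intensities. GenomeStudio and lumi are named in the submitters' processing notes. For tool versions, background correction, transform, normalization, sort gates, animal numbers and chips, the sources used here give nothing. The repository's value table differed from the authors' table by at most 5.00e-09.

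The deposited values were used unchanged on 16 arrays, 4 in each group. A probe was kept when it exceeded its own array's median on 4 or more of 16 arrays, and a gene was represented by its kept probe with the highest mean, which left 14632 probes and 10426 genes. A group-means model was fitted with limma 3.58.1 (R 4.3.3). Tests were moderated and two-sided, with 12 degrees of freedom left and 5.58 added by the prior. P-values were adjusted by Benjamini-Hochberg at 0.05 over all genes in each of 5 comparisons. The fit was tested on simulated data. The number of arrays limits the precision.

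The members, classes, marker lists and tests were chosen with earlier results of these data known. Named genes are those that passed in at least 1 comparison, the 3 lowest unadjusted p-values of each genotype comparison, the member with the highest mean in each class that had tested members, and tested members whose probes disagreed. The values of 1 tested gene are not reported here, though it is counted. Trpc6, Trpm1 and other untested genes named here fall outside this rule. Alternatives were no filter and a stricter one at the 75th percentile, quantile or median scaling, other probe rules, a trended robust variance, array weights, the compared groups alone, the repository's table, the replicate number as a block, a keratinocyte covariate and leaving out each array. A mast cell covariate, leaving out marker-rich pericyte arrays and a replicate block within genotype were added after seeing the data. Sequences came from RefSeq (GRCm38.p6), and motifs were counted with Python 3.11.15 and pandas 2.3.3.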

Additional observations from a re-analysis of the deposited data

Results flagged for a closer look

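In 3 of 88 sets of 4 arrays, 1 array stood apart from the other 3 by more than Dixon's 95% critical value for the gap over the range. Chance alone gives about 1 in 20, or 4.4 of 88. Cacna2d1 on knockout pericyte replicate 2 read 8.87, against 8.37 to 8.44 on the others of its group (0.874). Kcnj15 on wild-type pericyte replicate 2 read 7.34, against 6.85 to 6.90 (0.888), and was the array that overlapped the endothelial ones. Kcna5 on wild-type pericyte replicate 3 read 6.76, against 6.85 on each of the others (0.963). That gap lies at the floor of the scale and is smaller than 0.1.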

How the results depend on the processing

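In wild type the counts of 8 higher and 9 lower genes held when any 1 array was left out. In knockout the counts ranged from 6 to 9 higher and from 8 to 10 lower, and the genotype comparisons gave 0 in each case. Counts moved past 1.5 times only with the stricter filter, which tested 10 channel genes, with 3 higher and 5 lower in wild type and 4 higher and 5 lower in knockout. Of all 5889 genes tested with that filter, 2586 were called in wild type and 2467 in knockout. With the replicate number as a block the counts were 8 and 9 in wild type and 8 and 8 in knockout, and Clcn3 in knockout was the only call lost (limma, adjusted p = 0.0511). A replicate block within each genotype, added after seeing the data, gave the same counts and also lost that call alone (limma, adjusted p = 0.0558). Deviations of same-numbered pericyte and endothelial arrays of 1 genotype correlated at r from 0.0322 to 0.433, and those across genotypes at r from -0.18 to 0.448. In wild type each pericyte array correlated best with the endothelial array of its own number. In knockout, replicates 1 to 3 did so, and replicate 4 correlated best with endothelial replicate 3. Across genotypes only replicate 1 correlated best with its own number, in either cell type. The labels do not say that the numbers pair samples, so the main fit had no pairing and the blocks were alternatives. Without knockout pericyte replicates 2 to 4, 1 array was left in that group, so the calls of that fit are not counted here. With the keratinocyte covariate the knockout counts were 6 and 6. Over all 10426 genes, calls in knockout fell as well, from 3743 in the main fit to 2022 with this covariate. Among the knockout calls lost with that covariate were Cacna1d, Clcn3, Clic4 and Kcnj15 (limma, adjusted p = 0.717, 0.0566, 0.0933 and 0.274), and with the mast cell covariate Cacna1d (limma, adjusted p = 0.0683). With the keratinocyte covariate Cacna1d went from 0.32 to 0.14 and Kcnj15 from -0.44 to -0.37. Clcn3 went from -0.34 to -0.63 and Clic4 from -0.44 to -0.41. The standard error rose from 0.127 to 0.222 for Clcn3 and from 0.087 to 0.165 for Clic4. With 1 knockout pericyte array left, that array is assumed to vary like the others.

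Differences that turned sign were all small and had not passed. With the keratinocyte covariate, Clcn4-2, Kcnj6 and Trpv2 in knockout turned to -0.0553, -0.0774 and -0.17, Kcnj6 between pericytes to -0.11, and the Cacnb3 difference of effects to 0.0011. Without knockout pericyte replicates 2 to 4, Clcn4-2 and Trpv2 in knockout turned to -0.0386 and -0.11 and Kcnj6 between pericytes to -0.0588. With the mast cell covariate Trpv2 turned to -0.0013 in wild type and -0.0820 in knockout, and without wild-type pericyte replicates 3 and 4 to -0.0732 in wild type. With 1 array left out, Trpv2 ranged from -0.0282 to 0.223 in wild type and from -0.0500 to 0.0644 in knockout, and Clcn4-2 in knockout from -0.0139 to 0.0617. The cause was not tested in any of these. Values near the floor limit what can be seen of the 43 untested genes.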

Other observations

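Among the 43 untested channel genes, 7 were called between wild-type cell types when no filter was applied, 5 higher and 2 lower in pericytes (limma over 16537 genes). This is 16.3% of them, beside 25.8% of all genes. That share includes the 10426 genes that passed the filter, so the 2 shares are not like for like. The share over all genes that failed the filter was not computed. The same holds for knockout, where 6 were called, 2 higher and 4 lower, or 14% beside 26.7%. They were chosen after their values were seen. Kcnmb1, the smooth muscle beta subunit of the large-conductance potassium channel, read 7.13, 7.01, 6.82 and 7.50 on wild-type pericyte replicates 1 to 4 and 6.72 to 6.88 on the endothelial arrays. The cation channel genes Trpc1 and Trpc6 differed by 0.33 and 0.38 (limma, adjusted p = 2.19e-04 and 0.0261). In knockout Kcnmb1 and Trpc6 differed by 0.09 and 0.12 and did not pass (limma, adjusted p = 0.598 and 0.498). Clic5, a CLIC family member, was at 7.06 ± 0.10 in wild-type endothelial cells and 6.72 ± 0.01 in wild-type pericytes (SD, n = 4 each; limma, adjusted p = 2.82e-04). The sodium channel gene Scn3a was also lower in pericytes, at -0.41 (limma, adjusted p = 2.87e-04). Trpc1, Clic5 and Scn3a were called in knockout as well. All these levels lay near or below the array medians.

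Trpm1, a melanocyte and retinal cation channel gene that was not tested, read 6.79, 7.97, 7.37 and 6.73 on knockout pericyte replicates 1 to 4 and at most 6.84 on the other arrays. The mean over 5 melanocyte genes (Dct, Tyr, Tyrp1, Mlana and Si), a list written after the Trpm1 values were seen, was 6.89, 8.75, 8.26 and 7.01 on the same 4 arrays and at most 6.97 on the others. Their part in the Trpm1 values was not tested. Both were highest on knockout pericyte replicate 2, followed by replicate 3.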
